A study of Mus musculus with 44 samples.

Results

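The 10 genes described here encode transcription factors of the myeloid lineage: Spi1, the C/EBP family members Cebpa, Cebpb, Cebpd, Cebpe and Cebpg, the interferon regulatory factors Irf8 and Irf4, and the early growth response factors Egr1 and Egr2. They were chosen by name, and each of the 10 has 1 row in a deposited table of 27095 gene IDs that counts ChIP-seq reads around transcription start sites. The cells were HPC7, a mouse haematopoietic progenitor line grown in RPMI with 10% serum and 100 ng/ml murine stem cell factor. All groups carried an MSCV-IRES-GFP retrovirus. It held no insert (MIG-0, the empty vector), wild-type Snai1 (MIG-wt) or a Snai1 mutant (MIG-MUT) in which alanine replaces phenylalanine at residue 5, a change that impairs the interaction of Snai1 with Lsd1. GFP-positive cells were sorted a week after transduction and expanded, so each group is a pool of transduced cells of 1 line with Snai1 driven from a viral vector. For each of the 3 constructs there were 3 libraries of H3K4me2 and 3 of H3K4me1. IgG control ChIP (2 libraries) was made in wild-type Snai1 cells, and Snai1 ChIP was given as 1 peak list per construct made from 4 technical replicates.

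Spi1 encodes PU.1, an ETS factor that commits progenitors to myeloid and B-lymphoid fates, and the C/EBP proteins are leucine-zipper factors, of which C/EBPα starts granulocyte and monocyte differentiation. IRF8 and IRF4 bind DNA together with PU.1 and direct monocyte, dendritic cell and lymphocyte programmes, and EGR1 and EGR2 are zinc-finger factors induced early after growth stimuli and used in macrophage differentiation. Dimethylation of histone H3 at lysine 4 (H3K4me2) marks active and poised promoters, monomethylation (H3K4me1) marks enhancers and promoter flanks, and Lsd1 (gene Kdm1a) removes both. Snai1 is a zinc-finger repressor that recruits Lsd1 to its target genes, which sets the question of whether forced Snai1 lowers these marks at the myeloid factors and whether the mutant does so less.

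Depth, as the total of reads in all start-site windows, was 8694515 to 18199945 for H3K4me2, 4042976 to 8813537 for H3K4me1 and 2714255 and 3355479 for IgG. In every construct and mark, replicate 1 stood apart from replicates 2 and 3: its counts varied from theirs by 9.49 to 17.7 times the counting variance, whereas replicates 2 and 3 differed from each other by 0.98 to 2.30 times. The empty-vector H3K4me1 replicates 2 and 3 differed by less than the sampling noise and were counted as 1 sample. In replicates 2 and 3 whole chromosomes also stood apart between constructs, so the median log2 fold change of a gene's chromosome is given beside its own where they bear on a result. Of 12 markers of blood progenitors, 10 were above IgG in both marks, against 1 of 10 lymphoid markers in H3K4me2 and 2 of 10 in H3K4me1, 4 and 3 of 9 erythroid markers, and 2 and 3 of 10 mast cell markers. Of all windows, 36.1% were above IgG in H3K4me2 and 27.7% in H3K4me1. The labels do not say whether the numbered libraries are separate cultures, so p-values measure the spread between these libraries, which may be technical. A lower mark in all cells and its loss in a share of the cells cannot be told apart in these pooled cells.

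RefSeq promoter sequences (GRCm38.p6, 250 bases before to 50 bases after a start, 5′ to 3′ on the gene's strand) were matched for 6 of the 10 genes, in 11 entries. Spi1, Cebpd, Cebpe and Egr1 have no entry in the table used. The Cebpa sequence is shown because, of the genes with an entry, it alone had a peak in both Snai1 lists. Those of Irf8 and Irf4 are shown because their windows carried the least H3K4me2. Capitals mark a match to a searched motif, and positions count from the start site, the base before the start being -1.
Cebpa, chr7:35119043-35119342, plus strand: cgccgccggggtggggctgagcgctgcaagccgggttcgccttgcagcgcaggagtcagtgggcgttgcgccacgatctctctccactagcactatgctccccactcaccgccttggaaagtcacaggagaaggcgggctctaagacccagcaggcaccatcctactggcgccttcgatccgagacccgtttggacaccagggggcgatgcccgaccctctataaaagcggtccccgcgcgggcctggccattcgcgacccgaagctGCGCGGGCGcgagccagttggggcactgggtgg
Irf8 first start, chr8:120736108-120736407, plus strand: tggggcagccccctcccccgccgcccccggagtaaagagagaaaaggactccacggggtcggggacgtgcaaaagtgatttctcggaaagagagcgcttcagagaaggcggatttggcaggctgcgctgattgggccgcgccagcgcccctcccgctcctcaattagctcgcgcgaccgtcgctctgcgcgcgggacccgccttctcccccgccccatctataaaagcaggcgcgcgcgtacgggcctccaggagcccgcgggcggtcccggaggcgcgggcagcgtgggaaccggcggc
Irf8 second start, chr8:120738389-120738688, plus strand: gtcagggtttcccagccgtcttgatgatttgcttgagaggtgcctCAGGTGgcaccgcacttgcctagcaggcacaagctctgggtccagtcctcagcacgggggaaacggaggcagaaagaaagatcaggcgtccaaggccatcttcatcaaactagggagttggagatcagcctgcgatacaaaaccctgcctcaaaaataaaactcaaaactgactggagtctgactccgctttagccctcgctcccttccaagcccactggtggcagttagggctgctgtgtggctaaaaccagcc
Irf4, chr13:30748983-30749282, plus strand: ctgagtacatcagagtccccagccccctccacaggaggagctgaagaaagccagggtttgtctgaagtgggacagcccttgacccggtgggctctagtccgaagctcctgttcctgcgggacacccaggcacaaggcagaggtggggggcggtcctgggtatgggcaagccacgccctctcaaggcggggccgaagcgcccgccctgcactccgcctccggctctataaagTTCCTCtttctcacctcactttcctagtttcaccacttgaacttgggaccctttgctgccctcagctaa
The Cebpa capitals are a match to the EGR motif GCGNGGGCG at position 18, a motif held by 5.55% of all 32851 promoter windows on either strand. The second Irf8 window holds the E-box CAGGTG, the sequence that Snai1 is known to bind, at position -205, and 20.2% of all windows hold it or its other strand CACCTG. None of the other 10 entries held that E-box. The Irf4 window holds TTCCTC, the other strand of the PU.1 core GAGGAA, at position -19, and 28.3% of all windows hold that core on either strand. The same core was found in 4 of 5 Egr2 entries. Those that begin at chr10:67537619, 67537620 and 67537680 overlap and hold the same copy, so the 4 are not separate matches. The C/EBP motif TTGCNNAA (10.8% of all windows) and the IRF motif, 2 copies of GAAA with 2 bases between them (3.44%), were in none of the 11 entries.

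CpG content separated these promoters. The ratio of observed to expected CpG was 0.853 at Cebpa, 1.03 at Cebpb, 0.988 at Cebpg and 1.03 at the first Irf8 start, against a median of 0.384 over all promoter windows. The second Irf8 start had 0.357 and Irf4 0.398, both near that median, and the 5 Egr2 entries ran from 0.684 to 0.997. Irf8 thus has a CpG-rich and a CpG-poor start, and which of them its single deposited row covers is not given in the sources used here.

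**Figure D1:**
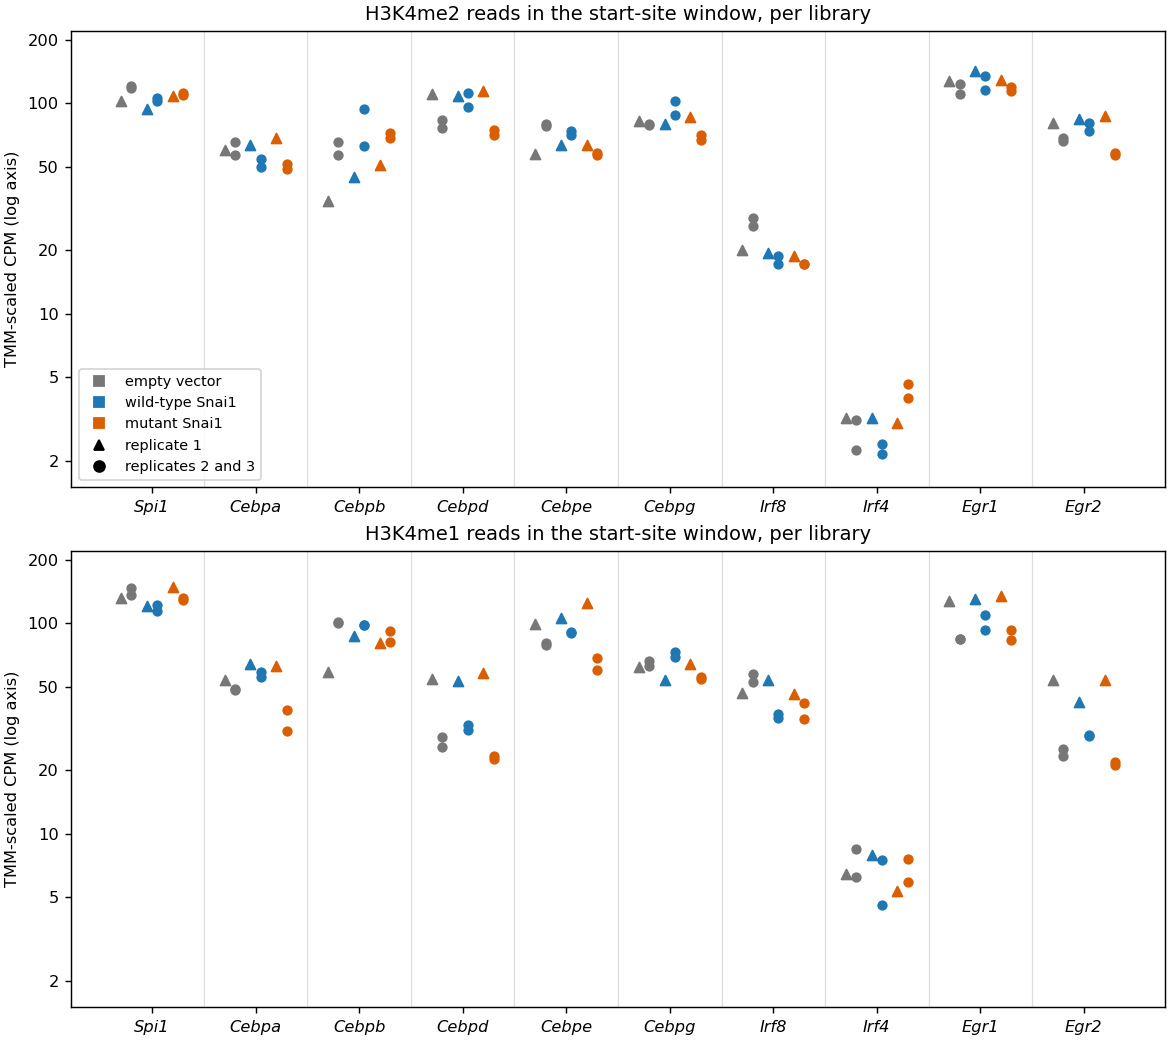
Reads in the start-site window of each gene as TMM-scaled CPM (log axis) in H3K4me2 (top) and H3K4me1 (bottom), 1 point per library, coloured by construct, with triangles for replicate 1. Irf4 lies lowest in both panels, with 2.15 to 4.65 CPM in H3K4me2, and the replicate 1 triangles of Cebpd and Egr2 lie above all circles in H3K4me1.

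Levels are given as CPM, read counts scaled to a common library size, with library sizes adjusted by TMM, edgeR's trimmed mean of M-values, in windows that are nominally 5 kb. The coordinates of the windows were not used here, and genes with several starts, such as Irf8 and Egr2, may have wider windows, so the order of levels between genes holds only where the windows are of 1 length. In H3K4me2 the mean over 9 libraries ran in the order Egr1 (124 CPM), Spi1 (108 CPM), Cebpd (93.9 CPM), Cebpg (81.8 CPM), Egr2 (72.9 CPM), Cebpe (66.8 CPM), Cebpb (61.0 CPM), Cebpa (57.6 CPM), Irf8 (20.3 CPM) and Irf4 (3.11 CPM). The ranges of neighbours in that order overlapped down to Cebpa. Irf8 lay below every library of Cebpa, and Irf4 below every library of Irf8. All windows had a median of 8.97 CPM, and the 10 genes stood between the 24.9th percentile (Irf4) and the 95.7th (Egr1). In H3K4me1 the order was Spi1 (131 CPM), Egr1 (104 CPM), Cebpb (88.7 CPM), Cebpe (88.6 CPM), Cebpg (62.3 CPM), Cebpa (51.2 CPM), Irf8 (45.0 CPM), Cebpd (36.7 CPM), Egr2 (33.4 CPM) and Irf4 (6.65 CPM), over a median of 24.8 CPM for all windows. There only Egr2 and Irf4 did not overlap as neighbours.

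The marks were next set against IgG in wild-type Snai1 cells, with edgeR's quasi-likelihood test on column totals, Benjamini-Hochberg adjustment over all windows and a threshold of 0.05. In H3K4me2, 8 of the 10 genes passed above IgG and 2 below, where 36.1% of all windows passed above and 55.7% below. In H3K4me1, 6 passed above and 2 below, where 27.7% of all windows passed above and 48.4% below. Cebpd and Egr2 were the genes with H3K4me2 above IgG and H3K4me1 that did not differ from it past the threshold. The median log2 fold change of all windows over IgG was -1.92 in H3K4me2 on column totals and moved to -0.94 with TMM and to -0.10 with relative log expression (RLE) size factors. For H3K4me1 it was -0.44, 0.06 and 0.03. Genes whose call changes with the scaling are named with their values.

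Spi1 (chr2:91082374-91115759, GRCm38) carried both marks at high and even levels. Its H3K4me2 was 102, 121 and 119 CPM in the empty-vector libraries, 93.7, 102 and 106 CPM with wild-type Snai1 and 108, 112 and 109 CPM with the mutant. H3K4me1 was 131, 136 and 147 CPM, then 121, 122 and 114 CPM, then 148, 129 and 132 CPM. The wild-type libraries were the lowest as a group in H3K4me1 and did not overlap either other group. Over IgG, at 52.3 ± 7.80 CPM (SD, n = 2) on column totals, the log2 fold change was 0.88 ± 0.14 (SE) in H3K4me2 and 1.16 ± 0.18 in H3K4me1, with adjusted p of 7.37e-05 and 0.00013 in edgeR's quasi-likelihood test. Mybpc3, a muscle gene, lies 2355 bp beyond the higher-coordinate end of Spi1. No strand was at hand for Spi1, so whether the start-site windows of the 2 genes share reads is not known here.

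Cebpa (chr7:35119293-35121928), the factor that opens granulocyte and monocyte differentiation, had H3K4me2 of 60.1, 65.2 and 57.0 CPM in empty-vector libraries, 63.3, 54.2 and 50.0 CPM with wild-type Snai1 and 68.7, 51.3 and 48.8 CPM with the mutant. Its H3K4me1 was 53.9, 48.1 and 48.6 CPM, then 64.2, 58.9 and 55.3 CPM, then 62.7, 30.7 and 38.5 CPM. The 2 lowest H3K4me1 libraries were thus mutant replicates 2 and 3, while mutant replicate 1 lay among the wild-type libraries. Cebpa passed above IgG in both marks, by 0.73 ± 0.17 and 0.85 ± 0.18 on the log2 scale.

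Cebpb (chr2:167688915-167690432), a factor of emergency granulopoiesis and macrophage activation, varied widely between libraries of 1 construct. H3K4me2 was 34.3, 65.6 and 56.6 CPM with the empty vector, 44.9, 94.0 and 63.0 CPM with wild-type Snai1 and 50.7, 72.1 and 68.1 CPM with the mutant. Replicate 1 was the lowest of each construct. H3K4me1 was 58.8, 102 and 100.8 CPM, then 87.0, 98.3 and 97.9 CPM, then 80.2, 81.3 and 92.1 CPM. Over IgG the H3K4me2 log2 fold change was 0.70 ± 0.30 with an adjusted p of 0.0431 by edgeR, and the call was lost without IgG replicate 2 (0.28) or without H3K4me2 replicate 2 (0.42). In H3K4me1 it was 1.24 ± 0.26. The annotated lncRNA A530013C23Rik lies 327 bp beyond the higher-coordinate end of Cebpb. Its strand was not used here, so whether its start-site window shares reads with that of Cebpb is not known.

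Cebpd (chr16:15887286-15889545), an acute-phase and early-response member of the family, had the opposite shape. H3K4me2 was 111, 83.4 and 76.3 CPM with the empty vector, 108, 111 and 96.0 CPM with wild-type Snai1 and 114, 74.3 and 70.7 CPM with the mutant. H3K4me1 was 54.4, 28.9 and 25.8 CPM, then 53.4, 31.1 and 32.9 CPM, then 57.8, 22.6 and 23.4 CPM. In H3K4me1 the 3 libraries of replicate 1 lay above all 6 others, whatever the construct. H3K4me2 was above IgG by 1.42 ± 0.15 on the log2 scale (adjusted p = 1.47e-06, edgeR), and H3K4me1 differed from it by 0.05 ± 0.26 (adjusted p = 0.872) on column totals and passed with TMM at 0.55 (adjusted p = 0.0492). The annotation of Spidr, a DNA repair gene, overlaps the higher-coordinate end of Cebpd. No strand was at hand for Cebpd, so whether its start-site window shares reads with that of Spidr is not known here.

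Cebpe (chr14:54710363-54712174), which drives late granulocyte maturation, carried 57.1, 79.9 and 77.8 CPM of H3K4me2 with the empty vector, 63.3, 74.0 and 70.9 CPM with wild-type Snai1 and 63.4, 57.8 and 56.7 CPM with the mutant. H3K4me1 was 99.0, 78.7 and 80.8 CPM, then 106, 90.6 and 89.5 CPM, then 125, 59.9 and 68.3 CPM. Here too the 3 replicate 1 libraries held the 3 highest H3K4me1 values. Its IgG level of 24.5 ± 2.87 CPM (SD, n = 2) was the lowest of the 10 genes, and its log2 fold change over IgG in H3K4me1, 1.94 ± 0.19 (adjusted p = 1.5e-05, edgeR), the highest. Cebpg (chr7:35046422-35056566), a ubiquitous partner of the other C/EBP proteins that lacks an activation domain, ranged from 67.2 to 103 CPM in H3K4me2 and from 53.7 to 73.4 CPM in H3K4me1. It passed above IgG by 0.96 ± 0.14 and 0.53 ± 0.17. Leaving out IgG replicate 2 ended the H3K4me1 call (0.43), as did leaving out H3K4me1 replicate 2 (0.46) or 3 (0.48). The gene Gm45095 overlaps the annotated Cebpg gene, and Pepd lies 1714 bp from it.

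Irf8 (chr8:120736358-120756694), the factor of monocyte and dendritic cell fate, had little H3K4me2 and a moderate level of H3K4me1. H3K4me2 was 20.0, 28.3 and 26.2 CPM with the empty vector, 19.5, 18.8 and 17.2 CPM with wild-type Snai1 and 18.8, 17.1 and 17.1 CPM with the mutant. H3K4me1 was 46.7, 57.5 and 52.4 CPM, then 53.5, 36.9 and 35.3 CPM, then 46.0, 35.3 and 41.6 CPM. All 3 empty-vector libraries lay above all 6 Snai1 libraries in H3K4me2, replicate 1 by a small margin. IgG stood at 64.0 ± 10.3 CPM (SD, n = 2), the highest of the 10 genes, and both marks were below it, by -1.84 ± 0.18 (adjusted p = 8.97e-07, edgeR) and -0.62 ± 0.22 (adjusted p = 0.0221). The H3K4me2 call was lost with RLE size factors (-0.02). The H3K4me1 call was lost with TMM (-0.12) and RLE (-0.15), and without either IgG library (-0.44 and -0.77) or either of H3K4me1 replicates 2 and 3 (-0.52 and -0.51).

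Irf4 (chr13:30749233-30766981), a factor of lymphocytes and dendritic cells, had the lowest levels, with 20 to 56 reads per H3K4me2 library. Its H3K4me2 was 3.18, 3.14 and 2.24 CPM with the empty vector, 3.20, 2.40 and 2.15 CPM with wild-type Snai1 and 3.03, 4.65 and 3.96 CPM with the mutant. The 2 highest libraries were mutant replicates 2 and 3. H3K4me1 ran from 4.56 to 8.44 CPM over the 9 libraries. Both marks were below IgG, by -4.13 ± 0.28 and -2.75 ± 0.31 on the log2 scale, at 45.0 ± 1.67 CPM (SD, n = 2) of IgG.

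Egr1 (chr18:34861207-34864956), an immediate-early factor, carried the most H3K4me2 of the 10 genes, from 111 to 142 CPM. Its H3K4me1 ran from 128 to 134 CPM in the 3 replicate 1 libraries and from 83.5 to 109 CPM in the 6 others, which did not overlap. Over IgG the log2 fold changes were 1.57 ± 0.20 and 1.37 ± 0.24. Egr2 (chr10:67534469-67542188), its paralogue in macrophage and Schwann cell differentiation, had H3K4me2 of 81.0, 68.4 and 66.0 CPM with the empty vector, 83.7, 80.8 and 74.0 CPM with wild-type Snai1 and 87.4, 56.8 and 57.7 CPM with the mutant. H3K4me1 was 53.8, 23.4 and 25.3 CPM, then 42.4, 29.2 and 29.3 CPM, then 54.0, 21.2 and 21.96 CPM. Replicate 1 lay above the other replicates in both marks. H3K4me2 passed above IgG by 0.84 ± 0.15, and H3K4me1 was at -0.35 ± 0.23 (adjusted p = 0.19, edgeR), a value that was positive under TMM and RLE scaling and passed below IgG without H3K4me1 replicate 1 (-0.59). The lncRNA Gm32255 overlaps the annotated Egr2 gene, and Ado lies 2323 bp from it.

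The balance of the 2 marks was compared within the constructs on column totals. Of the 10 genes, 4 passed with more H3K4me2 (28% of all windows) and 5 with more H3K4me1 (49.9% of all windows). The log2 ratio was 1.30 ± 0.18 (SE) at Cebpd, 1.07 ± 0.17 at Egr2, 0.40 ± 0.06 at Cebpg and 0.22 ± 0.09 at Egr1. It was -1.14 ± 0.11 at Irf8, -1.10 ± 0.18 at Irf4, -0.51 ± 0.16 at Cebpb, -0.42 ± 0.10 at Cebpe and -0.27 ± 0.06 at Spi1. All windows tested had a median of -0.44, and with RLE size factors the median was -0.08. Under RLE the Spi1 ratio turned to 0.091, and Cebpb (-0.14) and Cebpe (-0.07) no longer passed. Under TMM, Spi1 (-0.11) and Cebpe (-0.27) did not pass. Leaving out replicate 2 or 3 ended the call of Egr1 (0.18 and 0.21), and leaving out replicate 3 that of Cebpb (-0.50). Cebpa stood at 0.18 ± 0.10 (adjusted p = 0.0962, edgeR). With the replicate number as a block it passed, at 0.19 (adjusted p = 0.0197), and it also passed with TMM (0.33), with RLE (0.53) and without replicate 1 (0.24). By library pair, Cebpd and Egr2 were positive in 9 of 9 pairs, with 0.995 to 1.80 at Cebpd, and Irf8 was negative in 9 of 9, from -1.48 to -1.01. At Cebpa the wild-type pairs stood apart, with -0.04, -0.16 and -0.19 against 0.20 to 0.74 in the 6 others. At Irf4, with 20 to 56 H3K4me2 reads per library, the mutant pairs had -0.74, -0.34 and -0.92. The 6 others ran from -1.92 to -0.96, so the sets parted by a small margin. The share of all windows that part in this way was not computed, so neither parting can be set against a background. The Cebpa difference between marks did not pass for wild type against empty vector (-0.34 ± 0.30) in the test of mark by construct. None of the 10 genes passed that test in any of the 3 contrasts of constructs (0% of all windows passed). An unadjusted p under 0.05 was reached by 0 of the 10 there, and by 153, 136 and 320 of 26008 windows. Without replicate 1, Cebpa passed in wild type against mutant, at -0.68 (adjusted p = 0.00273, edgeR), as did 4.72% of all windows.

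**Figure D2:**
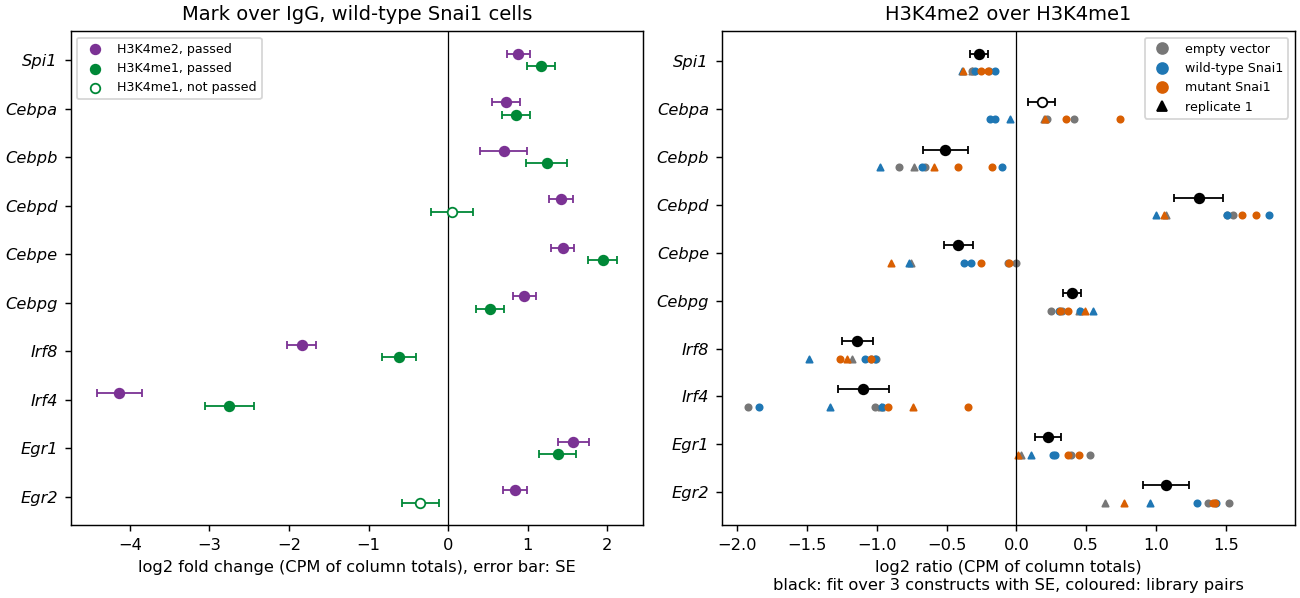
Left, log2 fold change of each mark over IgG in wild-type Snai1 cells with its SE, open circles not passing. Right, log2 ratio of H3K4me2 to H3K4me1 from the fit (black, with SE) and in each library pair (coloured by construct, triangles for replicate 1). Irf8 and Irf4 lie left of 0 in both panels, and Cebpd and Egr2 lie right of 0 in the right panel with 1.30 and 1.07.

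Between constructs, no window of the 10 genes passed in any of the 6 comparisons with edgeR's quasi-likelihood test. Of all windows, 0.00388% (1 window) passed in H3K4me2 for wild type against empty vector and 0% in the 5 other comparisons. DESeq2 also called 0 of the 10 in each. An unadjusted p under 0.05 was reached by 1 of the 10 in H3K4me2 for mutant against empty vector (Irf8) and by 1 for wild type against mutant (Cebpg), and by 0 in the other 4. Of all 25742 windows tested, 1274 and 2548 reached it in these 2 comparisons, so 1 of 10 does not set the members apart. The median log2 fold change of the 10 genes was 0.04 for wild type against empty vector, -0.08 for mutant against empty vector and 0.10 for wild type against mutant in H3K4me2, and 0.00, -0.14 and 0.14 in H3K4me1. The median over all windows lay between -0.04 and 0.03 in these comparisons.

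Irf8 had the lowest log2 fold change of the 10 against the empty vector in both marks. In H3K4me2 it was -0.43 ± 0.20 with wild-type Snai1 (adjusted p = 0.687, edgeR) and -0.49 ± 0.20 with the mutant (adjusted p = 0.952). In H3K4me1 it was -0.27 ± 0.21 and -0.31 ± 0.21. These comparisons share the empty-vector libraries. Replicate 1 alone gave -0.04 and -0.12 in H3K4me2 and 0.23 and -0.05 in H3K4me1, while replicates 2 and 3 alone gave -0.60 and -0.67, then -0.62 and -0.53. In replicates 2 and 3 the median of all windows on chromosome 8 was -0.09 with wild type and 0.33 with the mutant in H3K4me2, and -0.12 and 0.37 in H3K4me1. Between wild type and mutant Irf8 differed by 0.06 ± 0.20 in H3K4me2 and by 0.04 ± 0.19 in H3K4me1. The median of chromosome 8 in that contrast was -0.25 and -0.30, and minus it the Irf8 values were 0.31 and 0.34. Irf8 was also the gene whose H3K4me2 libraries did not overlap between each Snai1 construct and the empty vector, as in 12.6% of all windows for wild type and 6.92% for the mutant. In H3K4me1 its mutant and empty-vector libraries did not overlap either (7.84% of all windows).

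Among the other members, Spi1 had wild-type libraries below those of the mutant in H3K4me2 (9.14% of all windows did not overlap) and in H3K4me1 (8.56%), and below those of the empty vector in H3K4me1 (10.6%). Its log2 fold changes were -0.13 ± 0.10, -0.19 ± 0.16 and -0.20 ± 0.18, and none passed. The median of all windows on chromosome 2 was -0.18 for wild type against mutant in H3K4me2 and -0.17 in H3K4me1. Cebpa H3K4me1 lay above the empty vector in the 3 wild-type libraries, by 0.22 ± 0.26, and it differed by 0.43 ± 0.23 from the mutant (adjusted p = 0.99, edgeR). The latter was 0.10 in replicate 1 and 0.73 in replicates 2 and 3. Cebpb H3K4me2 was at 0.36 ± 0.26 with wild type and 0.29 ± 0.26 with the mutant, while replicate 1 alone gave 0.39 and 0.53, and the others 0.35 and 0.20. Irf4 H3K4me2 was at 0.42 ± 0.26 with the mutant, from -0.10 in replicate 1 and 0.67 in the others. For wild type against mutant it was at -0.54, from 0.11 in replicate 1 and -0.92 in the others, and it did not pass. The remaining log2 fold changes in H3K4me2 against the empty vector lay between -0.27 (Cebpe, mutant) and 0.22 (Cebpd, wild type).

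**Figure D3:**
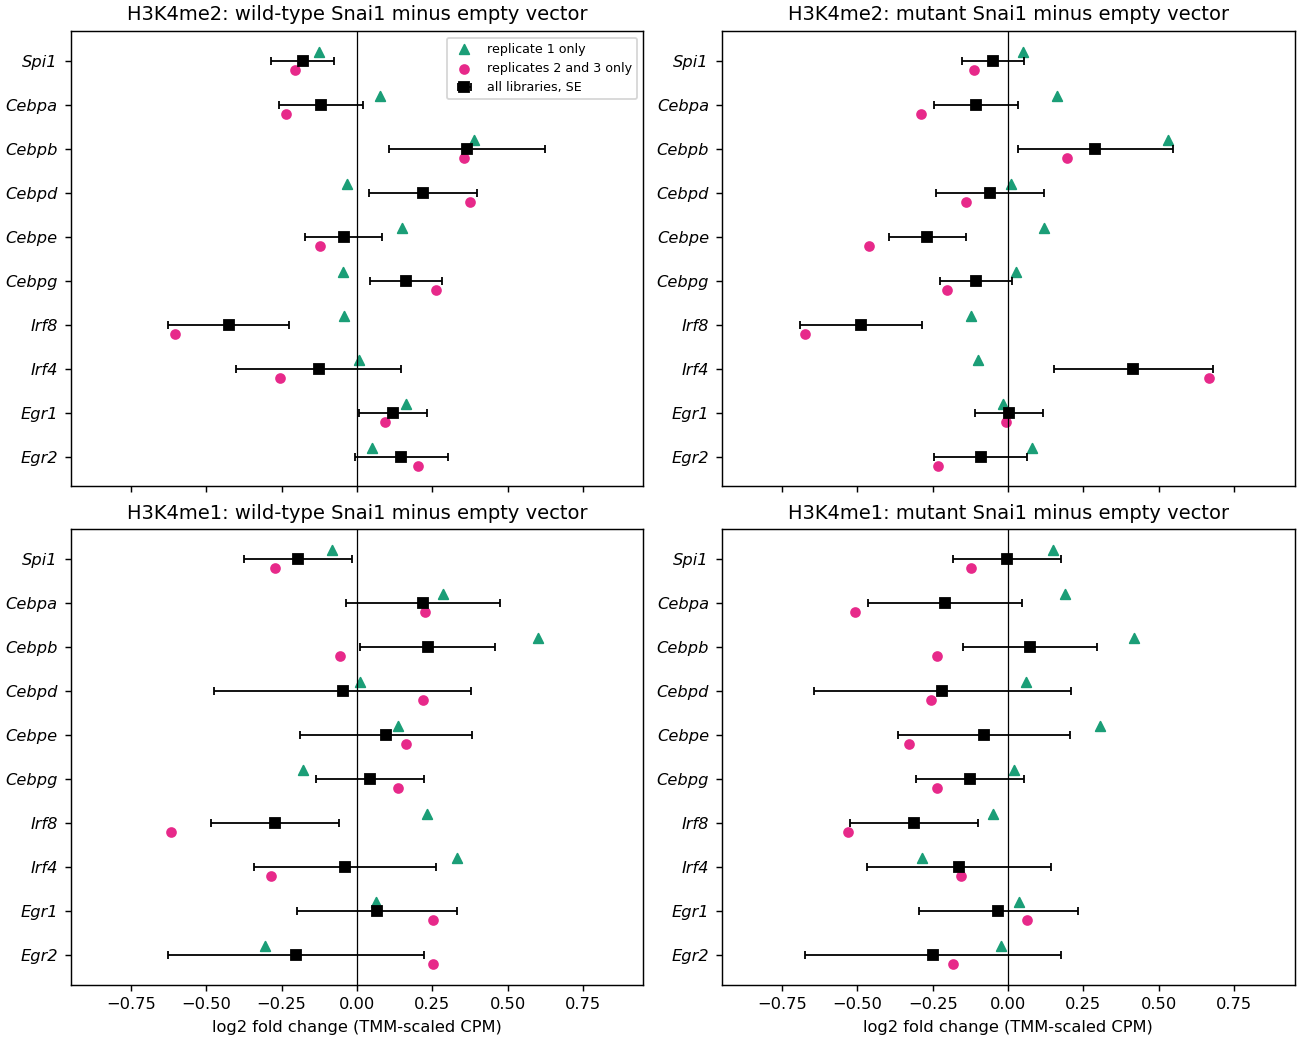
Log2 fold change of each gene against the empty vector in H3K4me2 (top) and H3K4me1 (bottom), for wild-type Snai1 (left) and the mutant (right), from all libraries (squares, SE), replicate 1 (triangles) and replicates 2 and 3 (circles). Irf8 lies left of 0 in all 4 panels for all libraries, with triangles at -0.04 and -0.12 in H3K4me2 and circles at -0.60 and -0.67.

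Replicates 2 and 3 alone gave calls that the full set did not. In H3K4me2, 6 of the 10 genes passed for wild type against empty vector (23.5% of all windows), 5 for mutant against empty vector (32.7%) and 5 for wild type against mutant (58.3%). In H3K4me1 the counts were 4 (34.4%), 5 (30.3%) and 6 (42.9%). Irf8 passed against the empty vector in all 4 of these comparisons. Cebpd, Cebpe, Cebpg and Egr2 passed with wild type above the mutant in both marks, from 0.34 (Cebpe) to 0.51 (Cebpd) in H3K4me2 and from 0.37 (Cebpg) to 0.49 (Cebpe) in H3K4me1. Irf4 passed the other way in H3K4me2, with wild type below the mutant at -0.92. Spi1, Cebpa and Irf8 were lower and Cebpd, Cebpg and Egr2 higher with wild-type Snai1 in H3K4me2. These libraries differed little beyond counting error within a construct, so such tests compare these libraries, not the conditions. The sign in replicate 1 matched that in replicates 2 and 3 for 5, 3 and 4 of the 10 genes in H3K4me2 and for 5, 4 and 4 in H3K4me1.

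At Cebpd and Egr2 the difference in H3K4me1 between replicate 1 and the others was larger than the log2 fold change of any of the 10 genes between constructs. Averaged over constructs, H3K4me1 in replicate 1 exceeded that in replicates 2 and 3 by 1.01 at Cebpd, 0.99 at Egr2, 0.53 at Egr1 and 0.50 at Cebpe on the log2 scale, and in these 4 the libraries did not overlap, as in 21.5% of all windows. In H3K4me2, Cebpd was higher by 0.39 with overlap. Egr2 was higher by 0.33 and Cebpb lower by 0.68 in replicate 1 (-0.82, -0.77 and -0.46 in the 3 constructs) without overlap, as in 13.9% of all windows. The median absolute difference over all windows was 0.24 in H3K4me1 and 0.16 in H3K4me2. Spi1 differed by 0.04 and -0.14. Leaving out mutant replicate 1 let 3 of the 10 genes pass in H3K4me2 for wild type against mutant, Egr2 (0.51), Cebpd (0.57) and Cebpg (0.41), where 16.6% of all windows passed.

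**Figure D4:**
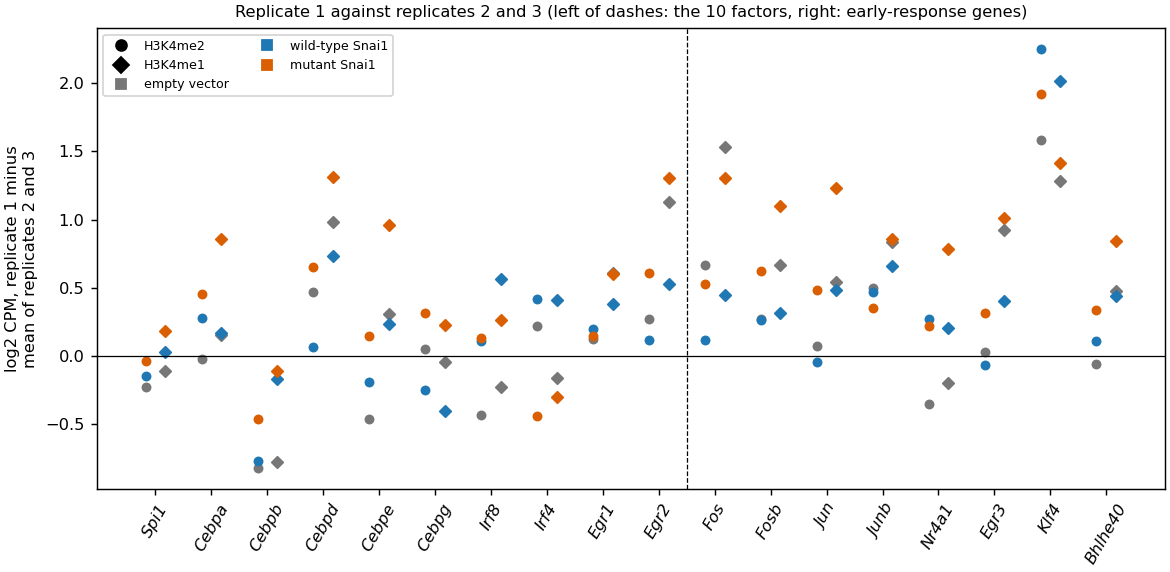
Log2 CPM of replicate 1 minus the mean of replicates 2 and 3, per construct (colour) and mark (circles H3K4me2, diamonds H3K4me1), for the 10 factors and, right of the dashes, for 8 early-response genes. In H3K4me1, Cebpd averages 1.01 and Egr2 0.99, and Cebpb lies below 0 in all 6 points.

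Over the 18 libraries of both marks, centred within each mark, Cebpd and Egr2 moved together with a Pearson r of 0.974, Cebpd and Egr1 with 0.896, and Cebpa and Cebpe with 0.758, while Spi1 and Cebpd had -0.197. The windows most like each gene on another chromosome were Smpdl3b and L1cam for Spi1 (r of 0.884 and 0.879), Adamts14 and Rps15a-ps5 for Cebpa (0.931 and 0.914), Wnt9a and Fancf for Cebpb (0.894 and 0.882), and Zc3h12a and Jup for Cebpe (0.981 and 0.963). For Cebpd they were Klf10 and Egr2 itself (0.977 and 0.974), for Egr2 they were Eef2kmt and Glul (0.983 and 0.979), for Egr1 Vash2 and Zfp821 (0.943 and 0.932), and for Cebpg Uhmk1 and Lbr (0.943 and 0.941). Irf8 was most like Scimp and Ankrd35 (0.918 and 0.899), and Irf4 most like Rasl12 and Plch2 (0.784 and 0.757). These correlations describe 18 libraries that share replicate sets and constructs, and the windows were picked as the highest of 13425 to 14294 searched.

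Snai1 peaks within 50 kb of the annotated genes came next, with the fold enrichment and -log10 q of the authors' peak caller. The empty-vector list (137 peaks) held 0 near the 10 genes, the wild-type list (2929 peaks) 3 and the mutant list (12037 peaks) 27. Of the 10 genes, 3 had a wild-type peak (25.5% of all genes with coordinates) and 8 a mutant peak (56.4%). None had an empty-vector peak (1.78%). The 3 wild-type peaks lay at Spi1, Cebpa and Cebpe, and each overlapped a mutant peak. Cebpg and Irf4 had none in any list. The labels do not say how the technical replicates were combined, so a peak cannot be checked over replicates, and the lists differ in length.

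Inside Spi1 the wild-type list held a peak at chr2:91096460-91096818 with 8.01-fold enrichment (-log10 q of 16.9), and the mutant list held one at chr2:91096482-91096828 with 13.0-fold (38.6), their summits 14 bp apart. The mutant list held 2 more peaks inside the gene. One lay at chr2:91082879-91083204 (9.41-fold), with its summit 661 bp from the lower-coordinate end of the gene, and the other at chr2:91097532-91097844 (3.65-fold). The table used gives no strand or exons for Spi1, so whether these are exonic or intronic is not stated here. Of the 4 further mutant peaks before the lower-coordinate end, the strongest near Spi1 lay at chr2:91042691-91043425 (13.5-fold), 38.9 kb away. Genes with a peak inside made up 6.65% of all genes for wild type and 24.9% for the mutant, and of the 10 genes only Spi1 had one in either list.

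At Cebpa the wild-type peak, chr7:35126967-35127265 (6.11-fold, -log10 q of 8.04), had its summit 7.83 kb beyond the start site, outside the gene on its downstream side. The mutant peak there, chr7:35126955-35127269, had 10.3-fold enrichment (27.1). A further mutant peak at chr7:35156566-35156953 (4.20-fold) had its summit 37.4 kb downstream of the start. At Cebpe the wild-type peak, chr14:54705916-54706192 (6.75-fold, -log10 q of 12.1), lay 4171 bp before the lower-coordinate end of the gene, and the mutant peak over it, chr14:54705823-54706211, had 15.1-fold enrichment (50.0), the highest near the 10 genes. On the other side of Cebpe 3 mutant peaks lay between 709 and 2545 bp from the gene, with 4.27 to 7.03-fold enrichment. The mutant fold was above the wild-type fold at each of these 3 shared sites, as at 66.5% of the 2486 wild-type peaks that overlap a mutant peak, whose median log2 ratio was 0.29.

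The mutant peaks near the other 5 genes had at most 7.29-fold enrichment. Near Cebpb 5 lay between 26.7 and 33.3 kb from the gene, the strongest by q at chr2:167656918-167657216 (6.27-fold, -log10 q of 16.7). Near Cebpd 1 lay 386 bp from the gene (chr16:15886636-15886900, 4.02-fold) and the stronger, chr16:15863267-15863535 (7.29-fold), 23.8 kb away. Egr1 had 3, of which the nearest was 993 bp away, chr18:34859830-34860214 (6.71-fold). Irf8 had 2, the stronger at chr8:120724811-120725049 (6.42-fold) with its summit 11.4 kb upstream of the first start, so neither of its promoter sequences shown above lies under a peak. Egr2 had 2, at 4.71 and 4.77-fold, 23.6 and 39.8 kb away. The median fold of the 27 peaks was 5.97, against 5.54 over the whole mutant list.

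**Figure D5:**
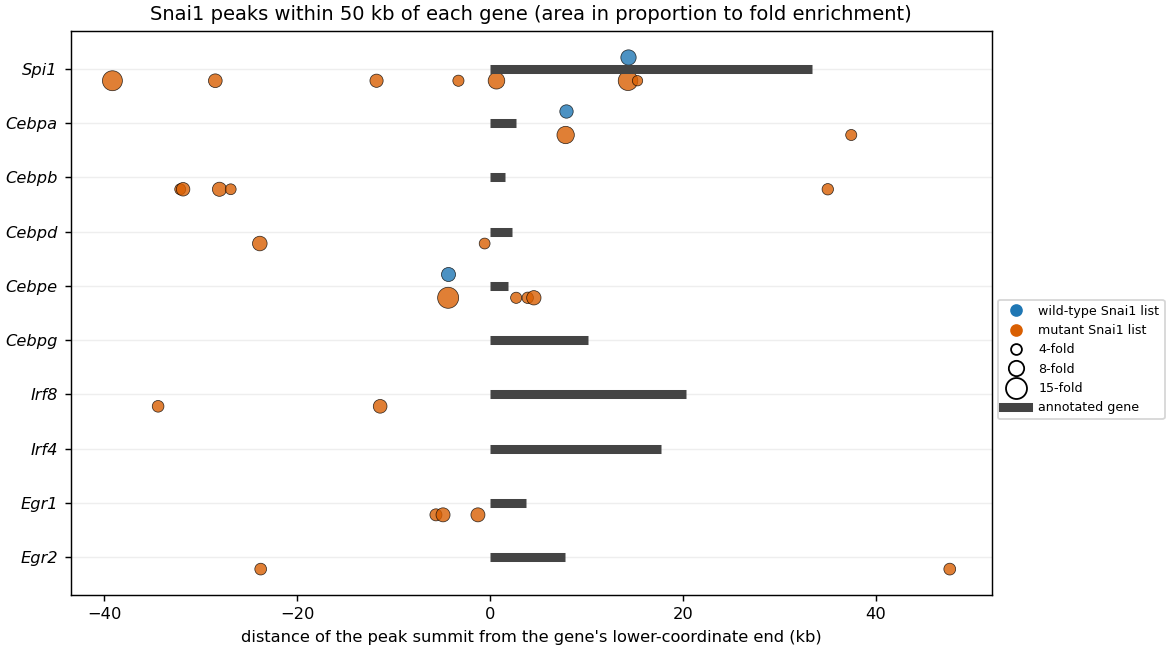
Summits of Snai1 peaks within 50 kb, by distance in kb from the gene's lower-coordinate end, for the wild-type list (blue, above each gene bar) and the mutant list (orange, below), with areas in proportion to fold enrichment. Blue points stand at Spi1, Cebpa and Cebpe alone, each over a larger orange point with 13.0, 10.3 and 15.1-fold enrichment.

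At the 3 genes with a wild-type peak, H3K4me2 against the empty vector was -0.18 at Spi1, -0.12 at Cebpa and -0.04 at Cebpe with wild-type Snai1, and -0.05, -0.11 and -0.27 with the mutant, none of which passed. Minus the median of chromosome 2 (0.16) the Spi1 value with the mutant was -0.21. Irf8 had the lowest value with each Snai1 construct, and within 50 kb it had 0 wild-type and 2 mutant peaks. Whether peaks and mark differences go together was not tested. In the Snai1 window itself H3K4me2 was at 0.54 ± 0.24 with wild type and 0.47 ± 0.24 with the mutant, and the Kdm1a window was at 0.07 ± 0.14 and -0.02 ± 0.14, and none passed. The mutant libraries of the Snai1 window had 56.5, 33.8 and 30.9 CPM. Both Snai1 groups carry a viral Snai1 insert that the empty vector lacks, and whether its reads fall in this window was not tested.

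Around the 10 genes, 12 further members of the same DNA-binding families, 28 partners and inhibitors and 30 myeloid receptor, granule and antigen-presentation genes were counted, and none passed in any comparison of constructs. Of the 30 myeloid genes, 24 were negative in H3K4me2 against the empty vector with each Snai1 construct, with medians of -0.27 for wild type and -0.21 for the mutant. In H3K4me1, 22 and 26 were negative, with medians of -0.23 and -0.17. All windows had medians between -0.02 and 0.03 in these 4 comparisons, which share the empty-vector libraries. Replicate 1 alone gave 13 and 14 negative genes of the 30 in H3K4me2 (medians of 0.05 and 0.03), with 18 and 11 in H3K4me1 (-0.04 and 0.15). With replicates 2 and 3 alone 24 and 22 were negative in H3K4me2 (-0.48 and -0.30) and 23 and 28 in H3K4me1 (-0.42 and -0.31). The summed H3K4me1 of 10 mast cell markers on column totals, none of them at 0, was 376 to 399.7 CPM with the empty vector, 410.1 to 449 CPM with wild-type Snai1 and 420.0 to 437 CPM with the mutant, and their H3K4me2 sums overlapped (177 to 256, 242 to 338 and 173 to 261 CPM). The IgG sums of these markers in wild-type Snai1 cells were 419 and 456 CPM, so these H3K4me1 sums did not exceed the IgG range. Their fitted H3K4me1 medians were 0.06 with wild type and 0.14 with the mutant, and none passed. On the same scale the summed H3K4me1 of 9 erythroid markers, none at 0, was 480 to 578 CPM with the empty vector, 554 to 586 CPM with wild-type Snai1 and 614 to 628 CPM with the mutant, and their H3K4me2 sums overlapped (554 to 585, 569.6 to 613 and 558 to 689 CPM). IgG sums of these 9 were 332 and 395 CPM. Sums of the progenitor and of the lymphoid markers overlapped between the constructs in both marks. Of the 9 erythroid markers, 7 were positive in H3K4me1 against the empty vector with each Snai1 construct. Their medians were 0.12 with wild type and 0.30 with the mutant, and none passed. The part of these marker shifts in the results was not tested. The genes with the smallest p were Cx3cr1, the fractalkine receptor of monocytes, at -1.66 ± 0.33 (adjusted p = 0.417, edgeR) and Lyz2, the lysozyme of macrophages, at -1.12 ± 0.28 (adjusted p = 0.446) for wild type in H3K4me2. For the mutant they were Gfi1, a repressor of the partners list, at -1.11 ± 0.29 and Csf1r, the M-CSF receptor, at -0.60 ± 0.19 (adjusted p of 0.952 for both). Gfi1 was at -0.45 in replicate 1 alone and at -1.32 in replicates 2 and 3 alone, and Csf1r at 0.06 and -0.94. In H3K4me1 they were Cybb, the NADPH oxidase subunit (-1.64 ± 0.43), and Cx3cr1 (-1.12 ± 0.31) for wild type and Gfi1 (-0.71 ± 0.21) and Cybb (-0.96 ± 0.42) for the mutant. In that order they were at -0.30, -0.61, -0.30 and -0.60 in replicate 1 alone. Replicates 2 and 3 alone gave -2.46, -1.46, -1.02 and -1.25. DESeq2 called Cx3cr1 and Lyz2 in H3K4me2 for wild type, at -1.66 and -1.10 (adjusted p of 0.000104 and 0.00904), where it called 74 of 25742 windows. These 2 genes were at -0.46 and -0.33 in replicate 1 alone and at -2.17 and -1.63 in replicates 2 and 3 alone. For wild type against mutant, Csf2rb (0.47 ± 0.10) and Mpo, the neutrophil peroxidase (0.78 ± 0.21), had the smallest p in H3K4me2, and Trib3 (-0.55 ± 0.19) and Irf2 (-0.51 ± 0.20) in H3K4me1, with adjusted p of 0.503 to 0.889. In replicate 1 alone they were at 0.39, -0.11, -0.01 and -0.37, and in replicates 2 and 3 alone at 0.53, 1.27, -0.75 and -0.58.

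The same lists were also set against IgG. In H3K4me2, 8 of the 30 myeloid genes passed above IgG and 18 below, shares near those of all windows (36.1% and 55.7%). In H3K4me1, 14 passed above and 9 below (27.7% and 48.4% of all windows). Of the 28 partners, 22 passed above and 3 below in H3K4me2, led by Zeb2 (2.22 ± 0.21), Gata2 (2.14 ± 0.28), Irf2bp2 (2.05 ± 0.36) and Jun (1.98 ± 0.18), and 20 and 2 in H3K4me1. Of the 12 relatives, 7 passed above and 4 below in H3K4me2, and 7 and 2 in H3K4me1. The granule and oxidase genes Ctsg (-4.14 ± 0.38), S100a8 (-3.93 ± 0.32) and Cybb (-3.80 ± 0.40) and the class II regulator Ciita (-3.94 ± 0.34) were furthest below IgG in H3K4me2. In H3K4me1 the highest were Prtn3 (2.63 ± 0.23) and Mpo (2.25 ± 0.28), enzymes of early granules, with Ncf1 (2.17 ± 0.23) and Itgax (1.97 ± 0.20), and the lowest were Egr4 (-2.85 ± 0.38), Ctsg (-2.84 ± 0.33), S100a8 (-2.69 ± 0.33) and S100a9 (-2.66 ± 0.27). Between the marks 26 of the 30 myeloid genes passed with more H3K4me1 (49.9% of all windows), led by Elane (-2.75 ± 0.16), Itgax (-2.48 ± 0.19), Ltf (-2.46 ± 0.14) and Ccr2 (-2.32 ± 0.28), and 3 with more H3K4me2 (28%). Of the partners, 15 passed with more H3K4me2, led by Zeb2 (1.43 ± 0.13), Irf2bp2 (1.15 ± 0.20) and Jun (1.01 ± 0.14), and 6 with more H3K4me1. Of the relatives, 3 and 6 passed.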

How the data were processed

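The members and the gene lists were chosen with earlier results of these data known. Counts of H3K4me2, H3K4me1 and IgG reads are raw read counts as deposited, 1 per Entrez gene ID in windows that the deposited table's name puts at 5 kb around start sites; the tools are Subread and featureCounts and the builds GRCm38 and mm10, per the submitters' processing notes (versions not given). Each Snai1 peak carries a fold enrichment (a ratio), a -log10 p and q and a score, as deposited by the authors and called with MACS2, per the submitters' processing notes; whether input served as control is not given in the sources used here. The score and the -log10 p of the deposited lists played no part here.

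Of 27095 gene IDs, 25204 matched a symbol in the RefSeq table (GRCm38.p6). Dropped were 31 rows that repeat another row and 20 empty ones. Counts were tested with edgeR 4.0.16 (R 4.3.3), quasi-likelihood F-tests with filterByExpr and TMM factors, over all 3 constructs in each mark. IgG and mark-to-mark tests used column totals. The p-values are two-sided and adjusted by Benjamini-Hochberg over all windows tested. Standard errors were taken from the log2 fold change and its F statistic. Log2 levels used a pseudocount of 0.5 CPM. Same-numbered libraries deviated together (r of 0.309 to 0.659 for replicate 1 and 0.132 to 0.572 for replicates 2 and 3, over windows). Deviations were taken from the mean of the 3 libraries, replicate 1 included. Of replicates 2 and 3, 7 of 12 pairs correlated best with their own number, so these r do not settle whether those 2 are paired. The main tests used group means without pairing. The replicate number served as a block in an alternative and to form the library pairs of the mark balance. The edgeR test alone was tried on simulated counts, for H3K4me2 in wild type against empty vector. Those counts held no difference between replicate sets, unlike the data. DESeq2 1.42.0, other scalings, filters, blocks and left-out libraries were tried as alternatives, and 2 alternatives were chosen after seeing the data: replicates 2 and 3 alone, and values minus the chromosome median. Named genes are the 10 members, Snai1 and Kdm1a, and of each list up to 4 per direction with the largest change that passed, or the 2 with the smallest p; per member the 2 windows with the highest r, and peaks inside the gene or with the highest -log10 q. Early-response genes of the closing section were picked after their values were seen. The values of 1 list gene that the naming rule picks are not reported here.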

Additional observations from a re-analysis of the deposited data

How the results depend on the processing

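The count of the 10 genes that passed stayed at 0 in all 6 comparisons of constructs under RLE size factors, column totals, scaling to olfactory and vomeronasal receptor windows, no filter, DESeq2, only the 2 constructs compared, a batch term, and replicates 2 and 3 summed. The replicate block also gave 0 in each, and beside Cebpa in the balance of marks it changed no other call of the 10 genes. With replicates 2 and 3 only the counts were 6, 5 and 5 in H3K4me2 and 4, 5 and 6 in H3K4me1. Leaving out 1 library at a time gave 0 to 3 genes for H3K4me2 in wild type against mutant, the 3 without mutant replicate 1, and 0 in the 5 others. The difference between marks gave 0 to 1 in wild type against mutant, the 1 being Cebpa without replicate 1. Spi1 in the balance of marks was the 1 called value that turned, to 0.091 with RLE. Over all windows the number called ran from 0 to 719, 620 and 4289 in the H3K4me2 comparisons and from 0 to 22, 1 and 211 in H3K4me1, within-set fits aside. DESeq2 called 74, 6, 48, 4, 0 and 29 windows. For peaks, 100 kb in place of 50 kb gave 1 empty-vector peak at 1 gene, 8 wild-type peaks at 5 genes and 43 mutant peaks. A limit of 10 kb gave 13 mutant peaks at 5 genes, and a -log10 q of at least 10 gave 13. Counted from the start of the 6 genes of known strand, there were 1 wild-type peak at 1 gene and 11 mutant peaks at 4 genes. The shares of all genes under these other peak settings were not computed, so these counts have no background to be read against. Counts of 20 to 56 reads limit Irf4, and 2 IgG libraries limit each comparison with IgG.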

Other observations

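The genes whose H3K4me1 was higher in replicate 1 included other early-response genes, which were picked after their own values had been seen, so that their count is a description only. Of 8 such genes in the lists of partners and relatives, 7 had all 3 replicate 1 libraries above all 6 others in H3K4me1, and 4 in H3K4me2. Fos, the AP-1 subunit, had 102 to 128 CPM of H3K4me1 in replicate 1 and 38.3 to 74.7 CPM in replicates 2 and 3. Junb had 220 to 282 CPM against 134 to 159 CPM, and Jun 95.2 to 115 CPM against 43.4 to 72.1 CPM. Egr3 had 88.5 to 117 CPM against 50.5 to 68.6 CPM. Klf4, a macrophage and stem cell factor, had the largest difference, 9.33 to 11.97 CPM against 2.07 to 4.17 CPM in H3K4me1 and 9.77 to 12.6 CPM against 1.64 to 3.27 CPM in H3K4me2. Nr4a1, an orphan nuclear receptor induced by growth stimuli, overlapped in both marks, with mean log2 differences of 0.26 and 0.05. The share of all windows with non-overlapping replicate sets was 21.5% in H3K4me1 and 13.9% in H3K4me2. The labels give no culture or date for the replicate numbers.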
